A study of Mus musculus with 4 samples.

Results

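Complex I (NADH:ubiquinone oxidoreductase) is the entry enzyme of the mitochondrial respiratory chain, and its nuclear-encoded genes were described here in mouse heart and in tibialis anterior (TA), a fast muscle of the lower hindlimb. Members were all gene symbols beginning with Nduf, which gave 39 of the 11237 symbols listed in either tissue. They comprised 34 subunit genes (Nduf followed by a, b, c, s or v and a number), 4 assembly factor genes (Ndufaf1 to Ndufaf4) and Ndufab1, which has neither form. All 39 were listed in both tissues and all had at least 1 RPM of RNA in both, so no member was lost to the minimum set on RNA.

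The samples were hearts and TA muscles of 10-week-old male C57BL/6J mice, with no treatment and no genetic change. The tissue was frozen and homogenised whole in cycloheximide, a drug that holds ribosomes in place. Each lysate gave both kinds of library: total RNA, from which ribosomal RNA was removed, and ribosome-protected fragments (RPF), the stretches of mRNA that ribosomes shield from RNase I. Heart and TA each had 1 RPF and 1 RNA library, 4 libraries in all, and how many animals stand behind a library is not stated. With no replicates, no difference below has a test. Intervals are 95% and cover counting error only, and "called" means a difference of at least 2-fold.

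Values are RPM, reads on the coding sequence of 1 RefSeq model per gene scaled to the coding reads of the library. Library depths, read from how low values step, were in heart 28120000 coding reads for RPF and 9290000 for RNA, and in TA 28520000 for RPF and 16050000 for RNA. The tissue labels were checked on RNA of marker genes: 7 heart muscle markers summed to 95120 RPM in heart and 227 RPM in TA, and 7 fast skeletal fibre markers to 354 RPM in heart and 192470 RPM in TA. Endothelial markers summed to 901 RPM in heart and 208 RPM in TA, macrophage markers to 194 and 42.0 RPM, fibroblast markers to 998 and 924 RPM, and red cell markers to 12485 and 472 RPM, in the same order. The part of these other cells in the results below was not tested. In whole tissue, fewer cells of a type and less RNA per cell cannot be told apart.

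Complex I takes electrons from NADH, passes them along a chain of iron-sulfur clusters to ubiquinone and pumps protons across the inner mitochondrial membrane. A core of catalytic subunits, inherited from bacteria, is split between the nuclear and the mitochondrial genome and is wrapped in many small accessory subunits. The enzyme has a peripheral arm in the matrix, where NADH is oxidised, and a membrane arm with a proximal and a distal part. Assembly factors hold partly built modules together and are absent from the finished enzyme. Cardiac muscle, which contracts without rest, is among the tissues richest in mitochondria.

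The surroundings of the start codon are shown first, because RPF measures ribosomes that began there and because complex I messages have short leaders. The median listed 5′ UTR of the 34 subunits was 46.5 nt, against 155 nt over all genes listed in heart. It was below 50 nt in 17 of 34 subunits (50%), against 14.1% of all genes, and below 30 nt in 12 (35.3%), against 7.54%. In GENCODE M21 transcripts whose coding sequence matched the listed model apart from a constant 6 nt, all 34 subunits had a purine 3 bases before the start codon (86.9% of 9651 listed genes with a matching model) and 21 (61.8%) had G just after it (53.1%). In 21 of 34 subunits the 5′ UTR of the matched GENCODE models was longer than the one listed, so the length of a leader depended on the annotation. The motif known as TISU, a start site found in mRNAs with very short 5′ UTRs, was searched on the transcript strand as AAN before the start codon and GCGGC after it. It was present in 6 of 34 subunits (17.6%) and in 156 of 9651 listed genes (1.62%), a search chosen after the sequences had been seen. Of the matches, 5 follow, 5′ to 3′, with the start codon in capitals.
Ndufa6: ctcggcaagATGgcggcc
Ndufa9: tgggagaagATGgcggcc
Ndufs3: ctaaggaacATGgcggcg
Ndufs4: tacaggaagATGgcggcg
Ndufs7: gaggccaagATGgcggcg
For contrast, the start sites follow of the subunits with the highest efficiency in heart (Ndufc1, Ndufv3 and Ndufb11) and of the subunit with the lowest (Ndufb4).
Ndufc1: cggaacaagATGgcgccg
Ndufv3: atttgtgccATGgcggtc
Ndufb11: caagctgtcATGgcggcc
Ndufb4: ggagtcaagATGtcgggt
In GRCm38 these start codons lie at chr15:82354226-82354228 (Ndufa6, minus strand), chr6:126849110-126849112 (Ndufa9, minus), chr2:90904645-90904647 (Ndufs3, minus), chr13:114388054-114388056 (Ndufs4, minus) and chr10:80249476-80249478 (Ndufs7, plus). The others lie at chr3:51408928-51408930 (Ndufc1, minus), chr17:31520214-31520216 (Ndufv3, plus), chrX:20617258-20617260 (Ndufb11, minus) and chr16:37654357-37654359 (Ndufb4, minus).

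The share of each library taken by the subunits gives their weight in the cell's translation. Together the 34 subunits took 2.26% of coding RPF reads and 1.39% of coding RNA reads in heart, and 1.06% of RPF and 0.748% of RNA in TA. The share was thus 2.12 times as large in heart as in TA for RPF and 1.85 times for RNA. In complexes II, III and IV and ATP synthase the same ratio ran from 1.85 to 2.29 for RPF and from 2.08 to 2.22 for RNA. The subunits' share of RPF was 1.63 times their share of RNA in heart and 1.43 times in TA. The 4 assembly factors together took 0.0116% of RPF and 0.0144% of RNA in heart, and 0.0078% of RPF and 0.00847% of RNA in TA. In both tissues their RPF share was thus below their RNA share, as it was for the median gene. Their summed RPF was 0.81 times their summed RNA in heart and 0.92 times in TA. The median gene's ratio was lower, at 0.74 in heart and 0.84 in TA.

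Although subunits stand together in a single enzyme, their mRNAs were not at equal levels. Per kilobase of coding sequence, the median subunit had 919 RPM of RPF and 581 RPM of RNA in heart, and 461 RPM of RPF and 328 RPM of RNA in TA. Ndufa4 was the highest in every library, with 3529 RPM per kb of RPF and 3250 of RNA in heart, and 3446 of RPF and 1626 of RNA in TA. Ndufa4 carries a complex I name and is now assigned to cytochrome c oxidase. Its paralog Ndufa4l2, a gene known for induction by low oxygen, was the lowest, with 31.4 RPM per kb of RPF and 28.2 of RNA in heart, and 48.7 of RPF and 7.48 of RNA in TA. Without this pair, the levels of the other 32 subunits spanned 13.3-fold in heart RPF, 9.72-fold in heart RNA, 10.0-fold in TA RPF and 16.3-fold in TA RNA. Among these 32, Ndufb9 had the highest RNA per kb (1352 RPM in heart and 835 in TA) and Ndufv3 the lowest (139 in heart and 51.2 in TA). Ndufb9 is an accessory subunit of the distal membrane arm. Ndufv3 is a small accessory subunit of the peripheral arm, listed here on its long isoform of 1401 coding nt, and which isoform its reads came from was not tested. The SD of log2 levels over the 32 was 0.98 for RPF and 0.67 for RNA in heart, and 0.85 for RPF and 0.76 for RNA in TA. By this measure RPF levels were more uneven between subunits than RNA levels in both tissues. In TA the full range was wider for RNA, where Ndufv3 was lowest at 51.2 RPM per kb and Ndufs8 next at 143. The gap was widest in the distal membrane arm in heart, where the SD over 10 subunits was 1.31 for RPF and 0.61 for RNA. It ran the other way for the core in TA, with 0.59 for RPF and 0.72 for RNA. The peripheral accessory subunits did so too, with 0.73 for RPF and 0.84 for RNA in heart. Their TA values were 0.98 and 1.06. Ndufv3 was their lowest in RNA, at 139 RPM per kb in heart and 51.2 in TA. The other peripheral accessory subunits ran from 366 to 798 and from 186 to 412 in RNA. In RPF they ran from 406 to 1392 in heart and from 154 to 661 in TA, the wider range in both tissues.

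**Figure D1:**
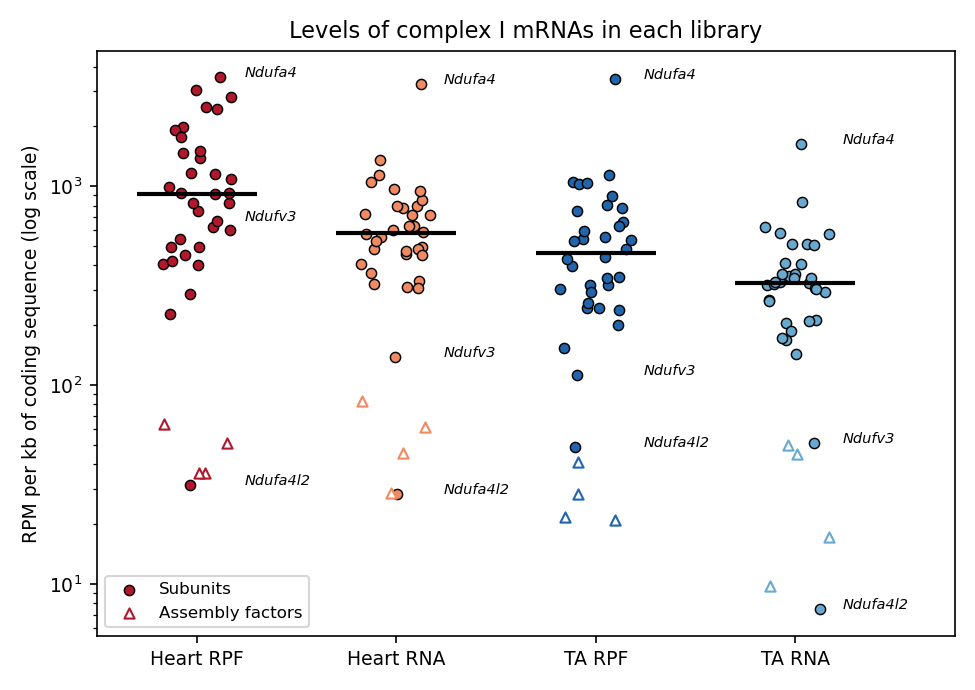
Coding RPF and RNA of the 34 subunits (circles) and 4 assembly factors (triangles) in each of the 4 libraries, in RPM per kb of coding sequence on a log scale, with the median subunit as a bar; Ndufab1 is not drawn. Ndufa4 tops every library, Ndufa4l2 is the lowest subunit, and every assembly factor lies below all subunits other than Ndufa4l2.

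Translational efficiency was the log2 ratio of RPF to RNA minus the same ratio of the median gene in that tissue, so 0 stands for the median gene. In heart 18 of 34 subunits were called higher and 0 lower, where 16.0% of 10680 genes were called higher and 17.8% lower. In TA 17 were called higher and 1 lower, against 15.4% and 18.7% of 10029 genes. The median subunit was at 1.08 in heart and 0.99 in TA, and 30 subunits in heart and 29 in TA were above the median gene. Called higher in both tissues were 11 subunits, in heart alone 7, in TA alone 6 and in neither 10. This overlap was not counted over all genes, so it describes the subunits only. Some calls in a single tissue turned on values just under 2-fold in the other, such as Ndufa8 (0.999 in heart) and Ndufc2 (0.983 in TA). All calls in this paragraph so far are relative to the median gene. With the ratio not centred, 9 of 34 were called higher in heart, where 7.98% of all genes were, and 9 in TA, where 10.2% were.

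**Figure D2:**
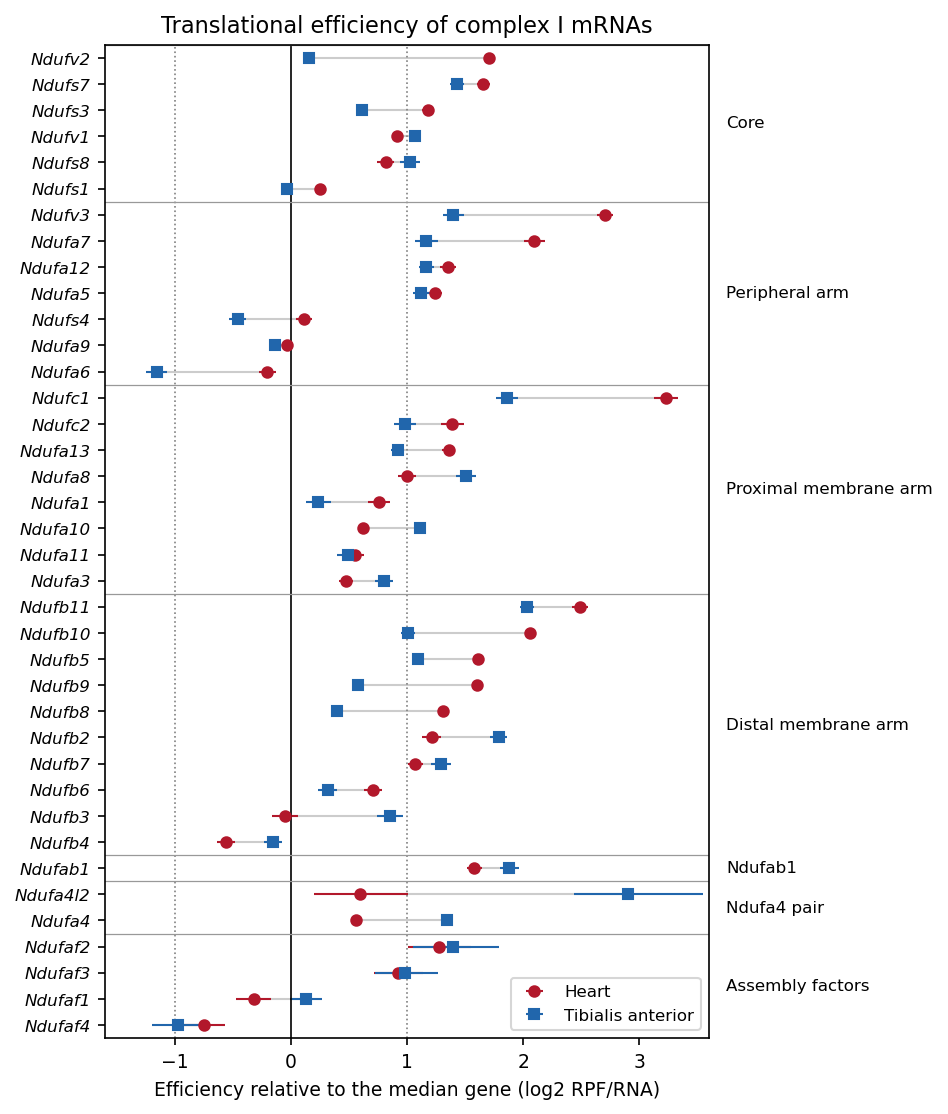
Efficiency of complex I genes relative to the median gene, in log2 units, in heart (red circles) and TA (blue squares), grouped by place in the enzyme and sorted by heart; bars are 95% counting intervals and dotted lines mark 2-fold. Most subunits lie right of 0 in both tissues, with Ndufc1, at 3.23 in heart and 1.86 in TA, the highest in heart, and Ndufa6, at -0.21 in heart and -1.16 in TA, the lowest in TA.

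The 7 core catalytic subunits had median efficiencies of 1.10 in heart and 0.61 in TA. Ndufs7, which holds the last iron-sulfur cluster before ubiquinone, had 731 RPM of RPF and 315 of RNA in heart, and 400 of RPF and 178 of RNA in TA, or efficiencies of 1.65 and 1.43. Ndufs3, also of the peripheral arm, had 728 RPM of RPF and 437 of RNA in heart, and 346 of RPF and 271 of RNA in TA, or 1.18 and 0.61. Ndufs7 was called in both tissues, and Ndufs3 in heart and not in TA, although it differed by only 0.57 between tissues. Ndufv1, which binds NADH and the flavin, had 1384 RPM of RPF and 996 of RNA in heart, and 739 of RPF and 422 of RNA in TA, or efficiencies of 0.91 and 1.07. Ndufs8, a carrier of iron-sulfur clusters, had 254 RPM of RPF and 196 of RNA in heart, and 154 of RPF and 90.8 of RNA in TA, or 0.82 and 1.03. Both lay near 2-fold in both tissues, with only the TA values past it. Ndufs1, the largest subunit of the enzyme, with 2178 listed coding nt, had 1360 RPM of RPF and 1556 of RNA in heart, and 641 of RPF and 785 of RNA in TA, or 0.25 and -0.03. It was the most abundant core subunit by RNA reads in heart and of the 7 the closest to the median gene in both tissues.

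The 7 accessory subunits of the peripheral arm had medians of 1.24 in heart and 1.12 in TA and the widest range of any module in TA. Ndufv3 had 937 RPM of RPF and 195 of RNA in heart, and 158 of RPF and 71.8 of RNA in TA, or efficiencies of 2.70 (2.64 to 2.77) and 1.40 (1.30 to 1.49). Ndufa7 had 388 RPM of RPF and 123 of RNA in heart, and 117 of RPF and 62.6 of RNA in TA, or 2.09 and 1.16. At the other end was Ndufa6, a subunit that anchors the acyl carrier protein to the peripheral arm. It had 158 RPM of RPF and 248 of RNA in heart, and 60.2 of RPF and 161 of RNA in TA, or -0.21 (-0.28 to -0.13) and -1.16 (-1.25 to -1.07). Ndufa6 was the only subunit called lower in either tissue, in TA, where it stood at percentile 15.6 of all genes. Ndufs4, a subunit that stabilises the NADH-oxidising end and whose loss causes Leigh syndrome in humans, had 221 RPM of RPF and 277 of RNA in heart, and 105 of RPF and 172 of RNA in TA, or 0.11 and -0.46. Ndufa9, which sits beside the ubiquinone site, was near the median gene, at -0.03 in heart and -0.14 in TA. The 6 subunits with a TISU start thus ran from -0.21 (Ndufa6) to 1.65 (Ndufs7) in heart and from -1.16 to 1.43 in TA, with 3 called higher in heart and 1 in TA.

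In the proximal membrane arm, 8 accessory subunits had medians of 0.88 in heart and 0.95 in TA, and none was below the median gene. Ndufc1, a small membrane subunit with 225 listed coding nt, had 631 RPM of RPF and 91.4 of RNA in heart, and 202 of RPF and 66.5 of RNA in TA. Its efficiencies of 3.23 (3.13 to 3.33) and 1.86 (1.77 to 1.96) were at percentiles 99.7 and 96.7 of all genes, and its heart value was the highest of any member there. Ndufa3 was the lowest of the module in heart, at 0.47, and Ndufa1 in TA, at 0.23.

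The 10 accessory subunits of the distal membrane arm had medians of 1.26 in heart and 0.93 in TA and held both extremes of RPF per kb in heart apart from the Ndufa4 pair. Ndufb11 had 897 RPM of RPF and 217 of RNA in heart, and 510 of RPF and 149 of RNA in TA, or efficiencies of 2.49 and 2.03. Ndufb2 had 257 RPM of RPF and 151 of RNA in heart, and 327 of RPF and 113 of RNA in TA, or 1.21 and 1.79. Both were called in both tissues. Ndufb4 had 110 RPM of RPF and 220 of RNA in heart, and 117 of RPF and 156 of RNA in TA, or -0.56 (-0.64 to -0.48) and -0.16 (-0.23 to -0.08), the lowest subunit in heart. Ndufb3 had 70.7 RPM of RPF and 99.5 of RNA in heart, and 80.2 of RPF and 53.3 of RNA in TA, or -0.05 and 0.85. Ndufb3 and Ndufb4 had the lowest RPF per kb in heart among the 32 subunits, at 229 and 286 RPM, while Ndufb9 had the highest, at 3033.

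Ndufa4 had 858 RPM of RPF and 790 of RNA in heart, and 837 of RPF and 395 of RNA in TA, or efficiencies of 0.56 and 1.34. Ndufa4l2 had 8.11 RPM of RPF and 7.28 of RNA in heart, and 12.6 of RPF and 1.93 of RNA in TA, or 0.59 (0.20 to 1.01) and 2.90 (2.44 to 3.55). Its TA RNA value rests on 31 reads. Both paralogs were thus called higher in TA and not in heart, and without them 18 of 32 subunits were called higher in heart and 15 in TA. Ndufab1, the mitochondrial acyl carrier protein that also serves fatty acid and lipoate synthesis, had 496 RPM of RPF and 225 of RNA in heart, and 263 of RPF and 85.4 of RNA in TA. Its efficiencies of 1.58 and 1.88 passed 2-fold in both tissues.

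Complex I coding sequences are short, and over all genes efficiency was higher at shorter coding lengths in both tissues, so the subunits were set beside genes of like length. Their median listed coding length was 447 nt, against 1422 nt over all genes listed in heart. Between 200 and 400 nt, 13 subunits had a median efficiency of 0.70 in heart, against 0.73 over 467 genes, and of 0.98 in TA, against 0.61 over 434 genes. Between 400 and 600 nt, 11 subunits had 1.35 in heart, against 0.69 over 803 genes, and 1.01 in TA, against 0.58 over 752 genes. Between 600 and 1500 nt, 9 subunits had 1.10 in heart, against 0.24 over 4341 genes, and 1.03 in TA, against 0.22 over 4052 genes. By these medians the shortest subunits in heart were level with genes of their length, and the 400 to 1500 nt groups were above them in both tissues. Single subunits departed from this, such as Ndufs4 (0.11 in heart and -0.46 in TA), Ndufa9 (-0.03 and -0.14) and, in TA, Ndufv2 (0.16), and Ndufs1, with 2178 nt, was in no group. With the trend over coding length removed, 9 of 34 subunits were called higher in heart, where 13.1% of all genes were, and 5 of 34 in TA, where 13.4% were, so the TA count was near the share of genes at large. Under this setting 1 was called lower in heart (Ndufb4) and 1 in TA (Ndufa6), and the median subunit was at 0.48 in heart and 0.47 in TA. Within the 34 subunits, efficiency and coding length had a Spearman rho of 0.13 in heart and -0.21 in TA, and efficiency and 5′ UTR length -0.08 and 0.04. These 34 points share their 2 libraries in each tissue and are a description only.

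**Figure D3:**
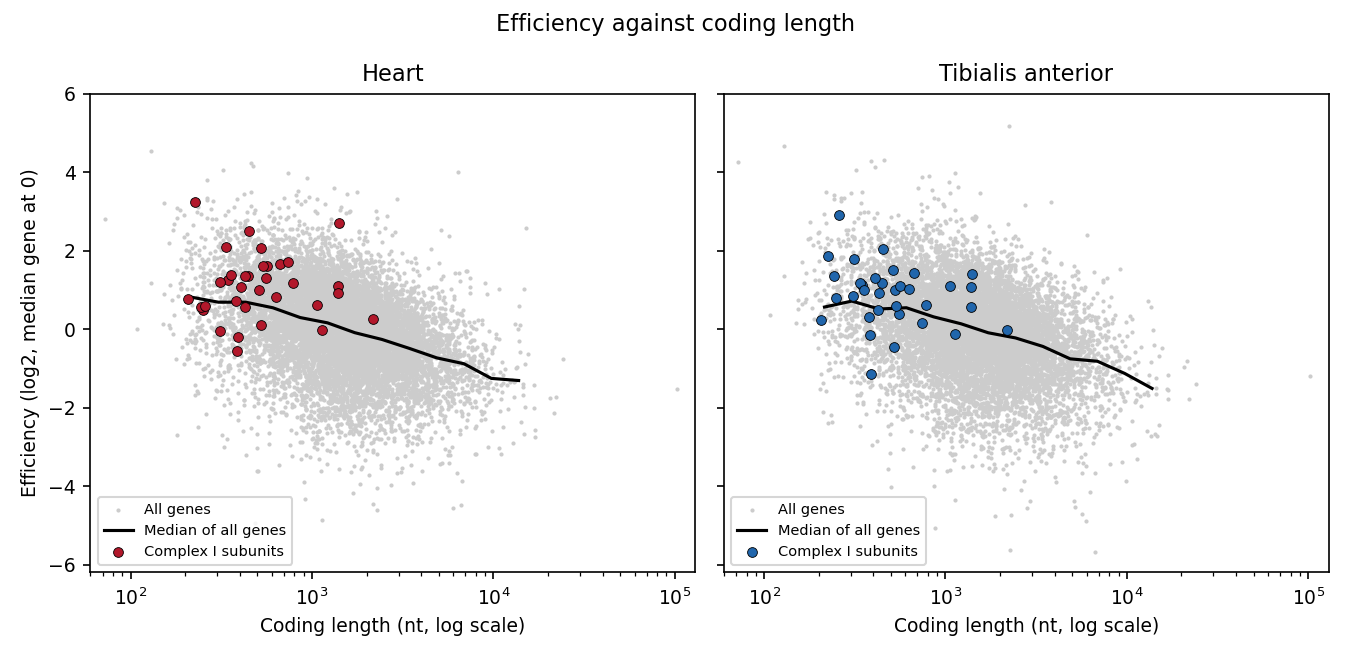
Efficiency relative to the median gene (log2) against listed coding length (nt, log scale) in heart (left) and TA (right), with all genes at 1 RPM of RNA or more in grey, the median of genes in length bins as a line and the 34 subunits in colour. Most subunits lie above the line, and in heart those between 200 and 400 nt lie around it, with a median of 0.70 against 0.73 for all genes there.

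Heart and TA were then compared for RNA and for RPF, as log2 of heart over TA. The median gene was at 0.70 for RNA and 0.60 for RPF, in libraries of which the 7 fast fibre markers alone took 192470 RPM of TA RNA, and values are set against these medians. For RNA, 10 of 34 subunits were called higher in heart and 0 lower, where 35.0% of 9843 genes were called higher and 3.88% lower. All 34 subunits were above 0 for RNA, but 26 were above 0 on a scale without the 50 most abundant genes of each library and 20 exceeded the median gene. For RPF, 15 subunits were called higher and 0 lower, where 30.1% were called higher and 5.06% lower, with 30 above 0, 27 above 0 on the scale without the 50 most abundant genes and 27 above the median gene. After centring on that gene, 1 of 34 subunits was called higher for RNA (Ndufa4l2), where 13.5% of all genes were. For RPF 6 were then called higher (Ndufa7, Ndufb10, Ndufb8, Ndufc1, Ndufv2 and Ndufv3) and 1 lower (Ndufa4l2), where 11.9% of genes were higher and 12% lower.

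The RPF ratios of the subunits were spread more widely than their RNA ratios, and both less widely than those of all genes. The median subunit was at 0.89 for RNA and 0.90 for RPF. Over the 32 subunits without the Ndufa4 pair, the SD was 0.32 for RNA and 0.64 for RPF, whereas over all genes it was 1.14 for RNA and 1.16 for RPF. For RNA the range of these 32 ran from 0.41 (Ndufb2) to 1.48 (Ndufb7). Ndufb7 had 241 RPM of RNA in heart and 86.3 in TA, and Ndufa10, a membrane arm subunit related to nucleoside kinases, had 768 RPM in heart and 285 in TA, a ratio of 1.43. For RPF the range ran from -0.35 (Ndufb2) to 2.57 (Ndufv3). Ndufv3 was followed by Ndufv2, at 2.22 (2.19 to 2.25), and Ndufb10, at 2.17 (2.14 to 2.21). Below 0 for RPF were Ndufb2, Ndufb3 (-0.18), Ndufb4 (-0.09) and Ndufa4l2 (-0.62), and Ndufa4 was at 0.03. Counting intervals excluded the median gene for 29 subunits in RNA, 20 above it and 9 below, and for all 34 in RPF, 27 above and 7 below. Such intervals are narrow at the read numbers of most subunits, and these counts were not made over all genes.

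**Figure D4:**
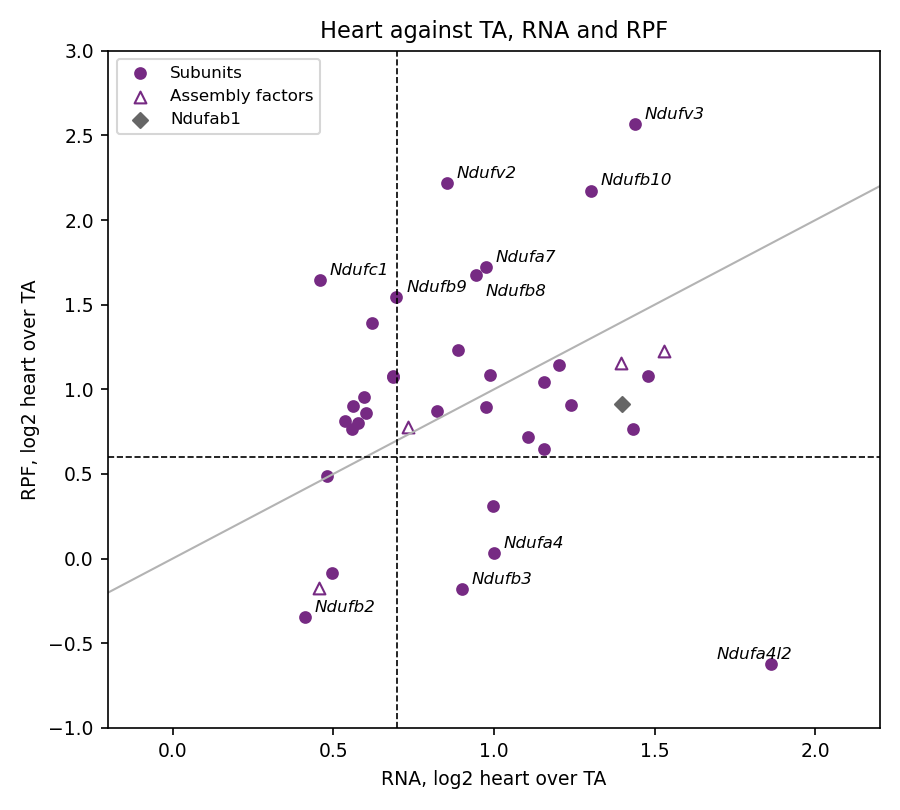
Log2 ratio of heart over TA for RPF (y axis) against RNA (x axis) of 34 subunits, 4 assembly factors and Ndufab1; dashed lines mark the median gene (0.70 for RNA, 0.60 for RPF) and the grey line equal ratios. The subunits form an upright cloud, spread more widely in RPF (SD 0.70 over all 34) than in RNA (SD 0.35), with Ndufv3, Ndufv2 and Ndufb10 at the top and Ndufa4l2 at the lower right.

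The difference of efficiency, heart minus TA, measures where the RPF and RNA ratios part. It was called higher in heart for 5 subunits and lower for 1, where 4.07% of 9635 genes were called higher and 2.34% lower. The median subunit was at 0.33, with 23 of 34 above 0, or 20 of 34 when the efficiencies were not centred. The SD was 0.77 over all 34 subunits and 0.61 over the 32 without the Ndufa4 pair, against 0.55 over all genes. In this difference, unlike in the RNA ratio, the subunits were thus no closer to each other than genes at large. In efficiency within a tissue they were closer, with SDs over all 34 of 0.84 in heart and 0.77 in TA. Over all genes those SDs were 1.10 and 1.12. The SD over all genes takes in genes down to 1 RPM of RNA, where counting error is larger. The 5 belonged to 4 modules. Ndufv2, a core iron-sulfur subunit next to Ndufv1, had 1862 RPM of RPF and 776 of RNA in heart, and 400 of RPF and 429 of RNA in TA, a difference of 1.54 (1.49 to 1.60). Its RPF in heart was above its RNA and in TA below it. Ndufc1 differed by 1.37 (1.23 to 1.50) and Ndufv3 by 1.31 (1.19 to 1.42). Ndufb10 had 1288 RPM of RPF and 419 of RNA in heart, and 285 of RPF and 170 of RNA in TA, a difference of 1.05 (0.97 to 1.13). Ndufb9, which anchors an acyl carrier protein in the distal arm, had 1620 RPM of RPF and 722 of RNA in heart, and 554 of RPF and 446 of RNA in TA, a difference of 1.03 (0.98 to 1.08). The intervals of Ndufb10 and Ndufb9 reach below 2-fold, and uncentred these 2 were not called. Just under the threshold were Ndufa6 (0.95), Ndufa7 (0.93) and Ndufb8 (0.91).

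The subunit called lower in heart was Ndufa4l2, at -2.31 (-2.96 to -1.65), which is not counted at a minimum of 5 RPM because of its low RNA. Its paralog Ndufa4 was at -0.78 (-0.84 to -0.73): RNA was 2.00 times as high in heart as in TA and RPF 1.02 times. Also low were Ndufb3, at -0.90 (-1.06 to -0.74), and Ndufb2, at -0.58 (-0.69 to -0.47). In modules, the peripheral accessory subunits had a median of 0.57 with all 7 above 0, the distal membrane arm 0.42 with 6 of 10 above 0, the core 0.28 with 5 of 7 and the proximal membrane arm 0.24 with 5 of 8. Intervals of the difference, narrow at the read numbers of most subunits, lay above 0 for 22 of the 34 subunits and below 0 for 11. These counts too were not made over all genes.

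The assembly factors were far scarcer than the subunits. Ndufaf1, which works in a membrane complex that builds the proton-pumping arm, had 35.7 RPM of RPF and 60.7 of RNA in heart, and 40.4 of RPF and 44.3 of RNA in TA, or efficiencies of -0.32 and 0.13. Ndufaf4, which acts with Ndufaf3 on early intermediates of the peripheral arm, had 18.7 RPM of RPF and 42.8 of RNA in heart, and 10.8 of RPF and 25.7 of RNA in TA, or -0.75 and -0.98. Its partner Ndufaf3 had 35.1 RPM of RPF and 25.2 of RNA in heart, and 15.7 of RPF and 9.50 of RNA in TA, or 0.92 and 0.98. The partners thus stood on opposite sides of the median gene in both tissues. Ndufaf2, a relative of the subunit Ndufa12 that binds a late intermediate, had 25.6 RPM of RPF and 14.3 of RNA in heart, and 10.9 of RPF and 4.91 of RNA in TA, or 1.27 (1.01 to 1.55) and 1.40 (1.05 to 1.79), and was the assembly factor called higher in both tissues. For heart over TA, Ndufaf2 (1.53) and Ndufaf3 (1.40) were called higher for RNA, and the same 2 for RPF (1.22 and 1.15). Over all genes 35.0% were called higher for RNA and 30.1% for RPF. Centred on the median gene, neither passed 2-fold, with Ndufaf2 at 0.83 for RNA and 0.63 for RPF and Ndufaf3 at 0.70 and 0.55. None of the 4 was called in the efficiency difference, where only 4.07% of all genes were called higher and 2.34% lower.

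A further list of assembly factors without the Nduf prefix had 10 measured genes, and 4 Ndufaf genes stood in the tables under older symbols. Of the 10, 0 were called higher in efficiency in heart and 2 lower, and 2 higher and 2 lower in TA. Over all genes 16.0% were higher and 17.8% lower in heart and 15.4% and 18.7% in TA, so these counts are near the share of genes at large or, for higher in heart, below it. The 2 lower in both tissues were Ecsit, a scaffold that works with Ndufaf1 (-1.42 in heart and -1.44 in TA), and Timmdc1, a membrane factor of the proximal arm (-1.08 and -1.11). Those higher in TA were Acad9, a relative of acyl-CoA dehydrogenases (1.01), and Tmem186 (1.18). Called higher in heart for both RNA and RPF were 2 of the 10, Foxred1 (2.46 for RNA and 2.75 for RPF) and Nubpl, which delivers iron-sulfur clusters (1.46 and 2.01). Over all genes 35.0% were called higher in heart for RNA and 30.1% for RPF, and 5.06% lower for RPF. Foxred1 had 60.0 RPM of RPF and 91.0 of RNA in heart, and 8.81 of RPF and 16.5 of RNA in TA. Of the 4 under older symbols, Ndufaf5, an enzyme that hydroxylates the Ndufs7 protein, was called lower in heart for RPF, with 14.9 RPM in heart and 31.7 in TA, a ratio of -1.09, and its RNA was 30.5 RPM in heart and 46.5 in TA. Ndufaf8, which works with Ndufaf5, was called higher in heart for RPF, with 8.36 RPM in heart and 3.32 in TA, a ratio of 1.31, and in efficiency in heart, at 1.02. Ndufaf5 and Ndufaf6 were the 2 of 18 assembly factors with RNA below 0 in heart over TA (-0.61 and -0.48). Over all 18 the median efficiency was 0.32 in heart and 0.08 in TA, against 1.08 and 0.99 for the subunits.

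The other respiratory complexes were described in the same way. For RNA in heart over TA, complex I subunits had the lowest median, 0.89, against 1.03 for complex II (4 genes), 1.10 for complex III (9), 1.17 for complex IV (15) and 1.02 for ATP synthase (17). Called higher for RNA were 10 of 34 in complex I, 2 of 4, 6 of 9, 12 of 15 and 11 of 17 in the others, against 35.0% of all genes. Complex I, at 29.4%, was near that share, and its median of 0.89 lay above the median gene, at 0.70. For efficiency in heart, complex I (1.08) and complex III (1.12) had higher medians than complex II (0.58), complex IV (0.52) and ATP synthase (0.56). In TA the medians were 0.99 for complex I, 1.25 for complex III, 0.75 for complex II, 0.66 for complex IV and 0.57 for ATP synthase. The median difference of efficiency was 0.33 in complex I and between -0.05 and 0.17 in the others. No test of these differences between complexes was possible, and the lists differ in size and gene length.

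Reads outside the coding sequence were a readout that the choice of genes did not use. On 5′ UTRs of the 34 subunits, RPF summed to 142 RPM in heart and 32.2 RPM in TA, a 4.41-fold difference, against 2.06-fold over all genes. Coding RPF of the subunits was itself 2.12-fold in heart over TA, against 0.998-fold over all genes. As a share of coding RPF, 5′ UTR RPF of the subunits was 0.631% in heart and 0.303% in TA, against 2.81% and 1.36% over all genes. By this share the subunits carried less RPF on their 5′ UTRs than genes at large in both tissues. The share was larger in heart by about as much in the subunits as in genes at large. RNA on the subunits' 5′ UTRs was 1.99% of coding RNA in heart and 1.97% in TA, also less than the 3.01% and 2.75% over all genes. The subunits' listed 5′ UTRs were shorter, with a median of 46.5 nt against 155 nt over all genes listed in heart. The part of length in these shares was not tested. In heart 11 subunits had at least 1 RPM of RPF on the 5′ UTR and 12 were listed at 0, and in TA 8 and 16. Ndufc2, a membrane arm partner of Ndufc1, had 32.8 RPM in heart and 7.28 in TA, or 15.2% and 5.90% of its coding RPF. Ndufs1 had 28.1 RPM in heart and 3.04 in TA, Ndufa4 24.8 and 3.71, and Ndufb10 11.5 and 1.26. Ndufb3 had 19.4 RPM in heart and 3.43 in TA, or 27.4% and 4.28% of its coding RPF, and per nucleotide its 5′ UTR of 74 nt carried 115% of the coding density in heart and 17.9% in TA. RNA density on the same 5′ UTR was 63.3% of the coding density in heart and 72.5% in TA. Ndufb11 was the exception among the subunits with most reads, with 6.94 RPM in heart and 7.69 in TA.

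**Figure D5:**
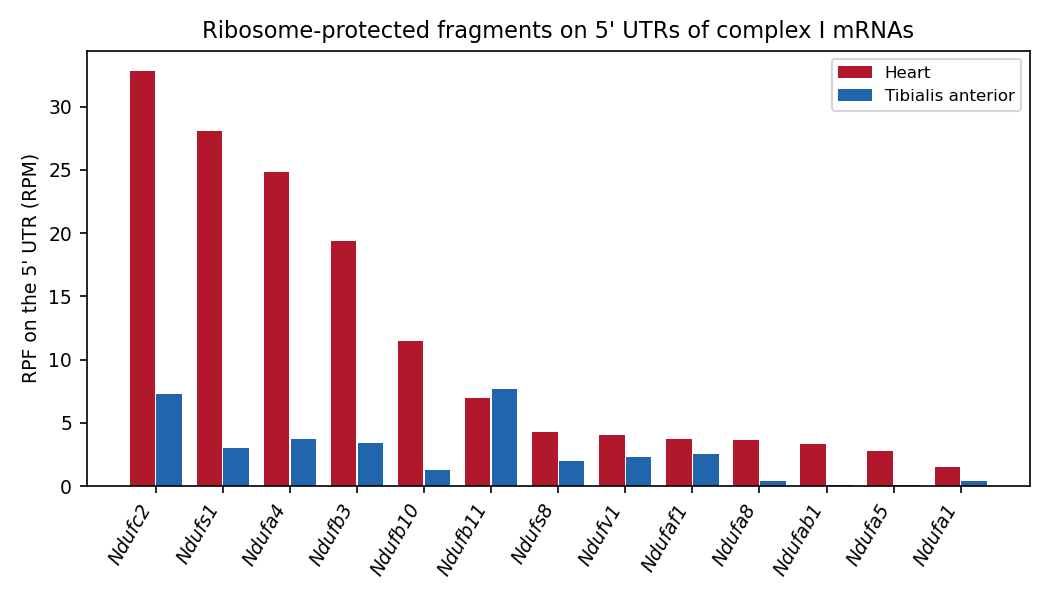
RPF on the listed 5′ UTR, in RPM, of the 13 members with at least 1 RPM in either tissue, heart in red left of TA in blue. Heart is higher for 12 of the 13, most of all in absolute terms for Ndufc2, Ndufs1, Ndufa4 and Ndufb3, and Ndufb11 is slightly higher in TA.

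Upstream ATG codons were counted in the 5′ UTRs of the matched GENCODE models. They were present in 16 of 34 subunits (47.1%) and in 51.5% of 9651 listed genes, and among models with 5′ UTRs under 100 nt in 3 of 19 (15.8%) and in 17%. Of the 4 subunits with most 5′ UTR RPF in heart, Ndufc2 had an upstream ATG within its listed 5′ UTR, 114 nt before the start codon and followed by a stop after 11 codons, shown with that ATG in capitals.
Ndufc2 upstream: ccgtacgcaATGcccttc
Ndufa4 and Ndufs1 had none in the matched model. For Ndufs1 that model had a 5′ UTR of 310 nt against 504 nt listed, so part of its listed 5′ UTR was not searched. The upstream ATG of Ndufb3 lay 165 nt before the start codon, outside its listed 5′ UTR. A match is a description of letters and not a measure of initiation there. On 3′ UTRs, RPF of the subunits was 0.112% of coding RPF in heart and 0.15% in TA, while RNA was 9.74% and 11% of coding RNA. Nearly all RPF of these genes thus lay on the coding sequence, as it did for genes at large. Over all genes, 3′ UTR RPF was 0.547% of coding RPF in heart and 0.276% in TA, and RNA was 37.0% and 30.0%. The median listed 3′ UTR was 110.5 nt in the subunits and 967 nt over all genes listed in heart.

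Promoters were searched on both strands for motifs of factors known to regulate respiratory genes, in RefSeq windows of GRCm38.p6 from 250 bases before to 50 after the gene start, which matched 30 of 34 subunits. The NRF-1 motif (GCGCA, any base, then GCGC) was in 5 of 30 (16.7%) and in 11.8% of 7870 listed genes, the GABP motif CCGGAAG in 4 (13.3%) and 19.9%, and the ERR motif AAGGTCA in 2 (6.67%) and 3.76%. The YY1 motif AAGATGG was in 6 (20.0%) and 8.03%, and its letters overlap those of a start codon in TISU context.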

How the data were processed

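As deposited, the tables hold RPM, counts scaled to a common library total and headed RPFM and RNAM, of RPF and RNA on the coding sequence and both UTRs of 1 RefSeq model per gene, per the file headers, with the length of each part, and they were not divided by length. Per the labels, mapping was to RefSeq transcripts. The submitters' processing notes name Bowtie, without a version, and mm9. How reads that map to several places were treated is not stated, so values of genes with near-identical copies or processed pseudogenes, and of Ndufa4 and Ndufa4l2, are uncertain. Heart and TA have a table each.

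In each library 100% of the listed values above 0 and under 2 RPM lay within the rounding of 0.005 RPM of whole multiples of a step. Values on the coding sequence and both UTRs were pooled for this. The step was 0.0354 RPM for RPF and 0.107 RPM for RNA in heart, and 0.035 and 0.0621 RPM in TA. Each step was taken as the worth of 1 read and gave depths and read counts, less surely for RPF. The design had left the unit open between scales, and all minimums were applied to RPM.

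A pseudocount of 0.1 RPM was added to every value before ratios were taken on the log2 scale, which understates changes of low genes. Efficiency was the ratio of RPF to RNA, less the median ratio of all genes that reached 1 RPM of RNA in that tissue. Tissue ratios, heart over TA, were left uncentred and cover genes whose mean RNA reached 1 RPM. Efficiency differences used genes at 1 RPM of RNA in both tissues. Symbols listed more than once (5 in heart and 4 in TA) were represented by the entry with the highest summed coding value. With 1 library per group no test was possible, and at least 2-fold was the rule. Intervals are 95%, conditional Clopper-Pearson for ratios and normal on the log scale for efficiency differences.

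Start codons and upstream ATGs come from GENCODE M21 (GRCm38), another build than mm9, with the model nearest in 5′ UTR length. The members and lists were chosen with earlier results of these data known. Described in full were the core subunits, the 3 highest and 3 lowest subunits of each comparison at 10 RPM of RNA or more, the extremes of RNA per kb, the Ndufa4 pair, Ndufab1 and the assembly factors, and other members were named where a count called for it. The values of 1 subunit are not reported here, although counts, sums and medians include it. Computations used Python 3.11.15, numpy 2.4.6, pandas 2.3.3 and scipy 1.17.1, plots used matplotlib 3.10.9, and the scripts were tested on simulated data. The alternatives changed the pseudocount, the minimum, the entry per symbol, the scale, the centring and the length trend, and 1 more, leaving out the Ndufa4 pair, was chosen after seeing the data.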

Additional observations from a re-analysis of the deposited data

Results flagged for a closer look

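Ndufs1 lay on opposite sides of the median gene in the 2 tissues, with an efficiency of 0.25 in heart and -0.03 in TA, a difference of 0.2789 on the log2 scale. Ndufs4 did so too, with 0.11 in heart and -0.46 in TA, a difference of 0.5723. In the other direction, Ndufb3 was at -0.05 in heart and 0.85 in TA, and the assembly factor Ndufaf1 at -0.32 and 0.13. With 1 library of each kind per tissue, none of these differences was tested.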

How the results depend on the processing

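No paired analysis was possible because each group had 1 library. No result changed sign among called values. Without centring, 9 subunits were called higher in efficiency in heart and 9 in TA (18 and 17 with centring), and the efficiency difference had 3 higher and 2 lower (5 and 1). With the trend over coding length removed, efficiency had 9 higher and 1 lower in heart and 5 higher in TA. On the scale without the 50 most abundant genes, 1 subunit was called higher in heart over TA for RNA (10 in the report) and 7 higher and 1 lower for RPF (15 and 0). Centred on the median gene instead, the counts were 1 for RNA and 6 higher and 1 lower for RPF. The 1 efficiency difference called lower became 0 at a minimum of 5 RPM and 0 without the Ndufa4 pair. The other 69 recomputed counts stayed within 1.5 times, as under another pseudocount (1 or 0.01), no minimum or the first listed entry per symbol. Of recomputed single-gene values, 1049 stayed within their counting interval and 388 moved beyond it. Counting error was small for subunits, except Ndufa4l2, with 68 RNA reads in heart and 31 in TA.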

Other observations

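By module, the median RNA ratio of heart over TA was 0.63 for the distal membrane arm, 0.97 for the peripheral accessory subunits, 0.85 for the core and 0.94 for the proximal membrane arm, so the distal arm lay below the median gene (0.70) and the others above it. In RPF the same medians were 0.86, 1.14, 0.95 and 0.83. Across the 32 subunits without the Ndufa4 pair, levels per kb in heart and TA had a Pearson r of 0.91 for RNA and 0.76 for RPF, and efficiencies in heart and TA one of 0.71, given as a description over genes of the same 4 libraries.

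Ndufaf5, listed under an older symbol, had more RPF on its 66-nt 5′ UTR than on its coding sequence in heart, 17.4 RPM against 14.9 RPM, and 7.83 RPM against 31.7 RPM in TA. RNA on that 5′ UTR was 0.11 RPM in heart and 0.5 RPM in TA, against 30.5 RPM and 46.5 RPM on the coding sequence.

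The 5′ UTR of 775 nt listed for Ndufa13 carried 0.07 RPM of RPF and 0.32 RPM of RNA in heart, and 0.04 RPM of RPF and 0.31 RPM of RNA in TA, while the coding sequence had 631 RPM of RPF and 334 of RNA in heart, and 347 of RPF and 220 of RNA in TA. Ndufaf4 had more RNA on its 3′ UTR of 3026 nt than on its coding sequence, 96.9 RPM in heart and 63.8 RPM in TA, against coding values of 42.8 RPM in heart and 25.7 RPM in TA.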
